A study of Mus musculus with 4 samples.

Results

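The glucocorticoid receptor gene Nr3c1 and 7 genes known to respond to glucocorticoids (Fkbp5, Tsc22d3, Sgk1, Zbtb16, Mt1, Mt2 and Cdkn1a) were followed in mouse sciatic nerve. They were taken by gene symbol, and all 8 are among the 50593 genes of the table. Both groups were 6 months old, of strain 129S1/SvImJ, and both carry a heterozygous deletion of Hsf1, the gene of heat shock factor 1. The HSF WT group has no TTR transgene, whereas the HSF V30M group carries human TTR with the V30M mutation, which causes hereditary transthyretin amyloidosis, on a background without functional mouse Ttr. The labels list 2 libraries per group, each titled as mice, and do not say how many animals a library holds. The promoter that drives the transgene is not given in the sources used here. The study asked how gene expression in nerve differs between these groups, with chemokines as its subject.

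Glucocorticoids are adrenal steroids whose blood level follows the time of day and increases with stress. They bind a receptor that is held in the cytoplasm by heat shock proteins and the immunophilin FKBP5. The bound receptor moves to the nucleus, where it activates genes through a palindromic DNA element and represses inflammatory genes, largely by interfering with other transcription factors. In peripheral nerve, Schwann cells express the receptor, and glucocorticoids are known to act on myelin genes.

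Each group has 1 value per gene, in FPKM (fragment counts scaled to transcript length and library size), which the authors' Cuffdiff run estimated over the libraries of the group. There is therefore no spread between mice, no test was possible, and a difference is given as a value only. Ratios are log2((HSF V30M + 1) / (HSF WT + 1)), and a gene is called higher or lower where the fold on this scale exceeds 1.5, which is 0.58 in log2 units. Genes were counted where the FPKM averaged 1 or more, 15620 in all, and their median log2 ratio was 0.00. Of these genes, 8.22% were called higher and 8.44% lower, and of the protein-coding ones 5.03% and 5.32%. Every count of called genes below is to be read beside these shares. Where a pair of values is given, HSF V30M comes first. Markers of the tissue were abundant, with Mbp, which encodes myelin basic protein, at 3854 FPKM in HSF V30M against 3441 in HSF WT. Mouse Ttr stood at 6.10 in the group labelled HSF V30M, where it should be null, and at 0 in the one labelled HSF WT, where 3 fragments would have given 0.197. Reads of the human transgene cannot be told apart from mouse reads in this table, so Ttr does not check the labels, and HSF V30M and HSF WT stand below for the groups so labelled. Hsf1 had 7.94 FPKM in HSF V30M against 15.0 in HSF WT, a log2 ratio of -0.84.

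The receptor itself had nearly the same value in the groups. Nr3c1 (ENSMUSG00000024431) is annotated on the minus strand of chromosome 18 of GRCm38, from 39410545 to 39519421. Expression was 37.4 FPKM in HSF V30M against 38.2 in HSF WT, a log2 ratio of -0.03. In bulk tissue, fewer cells of a type and less RNA per cell cannot be told apart, here or for the genes that follow. With the longest coding transcript, counting error alone gives a 95% interval for the fold of HSF V30M over HSF WT from 0.936 to 1.02. At this level Nr3c1 had a higher mean FPKM than 86.1% of the genes counted. Nr3c2, which encodes the mineralocorticoid receptor that binds the same hormones, had 12.3 and 13.4, a log2 ratio of -0.12.

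Among the responsive genes, Tsc22d3 (ENSMUSG00000031431) had the highest ratio. It encodes GILZ, a leucine zipper protein that carries much of the anti-inflammatory action of glucocorticoids, and lies on the minus strand of chromosome X, from 140539528 to 140600659. Expression was 84.8 FPKM in HSF V30M against 37.7 in HSF WT, a linear fold of 2.25 and a log2 ratio of 1.15. The counting interval of this fold ran from 1.95 to 2.60 even when the shortest annotated transcript was taken, where the values stand for 816 and 258 fragments. Only 3.25% of the genes counted had a higher ratio. Per unit length, Tsc22d3 RNA was 0.986 times the level of Nr3c1 RNA in HSF WT and 2.27 times in HSF V30M. Its paralogs gave log2 ratios of 0.22 for Tsc22d1, -0.18 for Tsc22d2 and -0.10 for Tsc22d4, none of them past the fold.

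Fkbp5 (ENSMUSG00000024222), on the minus strand of chromosome 17 from 28399094 to 28517527, encodes the co-chaperone that lowers the hormone affinity of the receptor and is itself induced by it. Expression was 20.9 FPKM in HSF V30M against 12.3 in HSF WT, a linear fold of 1.70 and a log2 ratio of 0.72. The counting interval was 1.56 to 1.86 on the longest coding transcript. On the shortest transcript, where the values stand for 50 and 21 fragments, it widened to 0.999 to 2.97. Fkbp4, whose product FKBP52 opposes FKBP5 on the receptor, had 37.4 and 32.2, a log2 ratio of 0.21, so the FPKM of Fkbp5 relative to Fkbp4 was 0.559 in HSF V30M against 0.382 in HSF WT. The table gives Fkbp5 and 1 other gene the same locus.

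Sgk1 (ENSMUSG00000019970), which encodes a serum- and glucocorticoid-induced kinase that regulates ion channels and cell survival, lies on the plus strand of chromosome 10, from 21882184 to 21999903. Expression was 80.6 FPKM in HSF V30M against 49.96 in HSF WT, a linear fold of 1.61 and a log2 ratio of 0.68, with counting intervals of 1.53 to 1.70 on the longest coding transcript and 1.17 to 2.26 on the shortest. Pdpk1, the kinase that activates SGK1, had 23.0 and 12.4, a log2 ratio of 0.84. Of the 10 SGK1 partners and substrates with a mean of at least 1, Pdpk1 was the only one past the fold. That share of 10% lies near the 8.22% of all genes higher past the fold. The paralog Sgk3 had a log2 ratio of 0.08. The promoter is shown because it holds the complete glucocorticoid response element, AGAACA and TGTTCT separated by 3 bases of any kind. Of 32851 RefSeq promoters of 300 bases (from 250 before to 50 after a start), searched on both strands, 3 held this exact element, which is 0.00913%. They belong to Sgk1, to Acnat2, which is listed at 0 in both groups, and to a gene model that is not in the table. Sgk1 has 6 annotated starts in the RefSeq table, and the 300-base window of 1 of them holds the element. It begins at -189 from that start, where the base at the start is counted as 0. The window is chr10:21993640-21993939 of GRCm38.p6 on the plus strand, with the element in capitals.
Sgk1: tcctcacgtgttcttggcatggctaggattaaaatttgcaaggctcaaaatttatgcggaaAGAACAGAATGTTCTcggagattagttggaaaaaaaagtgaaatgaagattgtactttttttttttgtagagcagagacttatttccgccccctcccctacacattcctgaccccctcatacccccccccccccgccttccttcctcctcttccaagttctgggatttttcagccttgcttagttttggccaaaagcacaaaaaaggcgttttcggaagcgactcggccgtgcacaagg

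None of the other member promoters in that table held the exact element. The table has 14 promoters of 6 members and no entry for Nr3c1 or Zbtb16. The inner core of the element, ACANNNTGT, which every complete element also contains, is in 6.85% of all promoters and in 3 of the 14, namely 2 of Sgk1 and 1 of Mt1. These are matches of letters within 300 bases, and many known response elements lie much farther from the start.

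Zbtb16 (ENSMUSG00000066687) encodes the zinc finger repressor PLZF and lies on the minus strand of chromosome 9, from 48654297 to 48836222. Expression was 18.9 FPKM in HSF V30M against 14.4 in HSF WT, a linear fold of 1.31 with a counting interval of 1.21 to 1.41 on the longest coding transcript and 1.17 to 1.46 on the shortest. The log2 ratio of 0.36 did not reach the fold of 1.5.

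**Figure D1:**
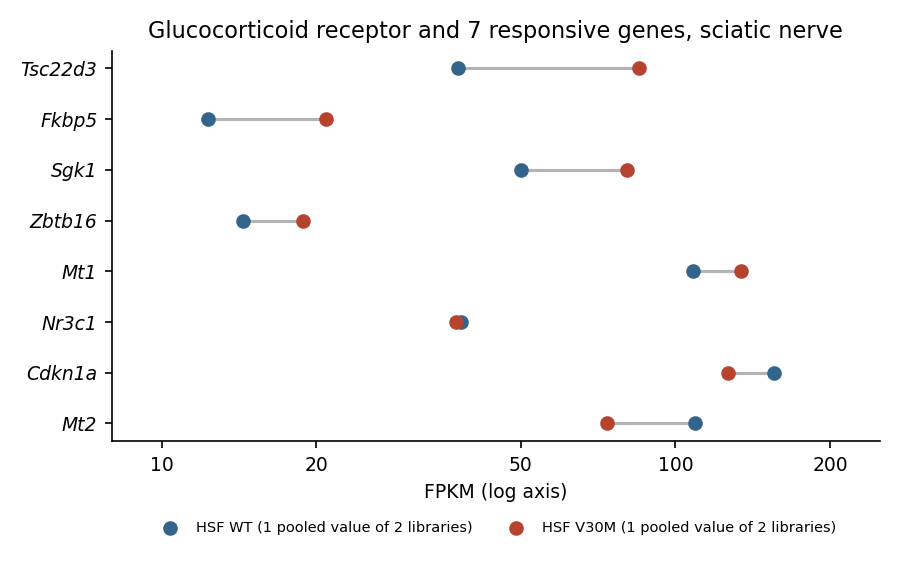
FPKM of the 8 genes on a log axis, with 1 pooled value per group and no error bar because the table holds no value per mouse. From the highest ratio of HSF V30M over HSF WT at the top to the lowest at the bottom, Tsc22d3 shows the widest gap (84.8 against 37.7), Nr3c1 almost none (37.4 against 38.2), and Cdkn1a and Mt2 lie lower in HSF V30M.

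The metallothionein genes Mt1 (ENSMUSG00000031765) and Mt2 (ENSMUSG00000031762) differed in opposite directions. They encode small cysteine-rich proteins that bind zinc and copper, respond to metals as well as to glucocorticoids, and lie side by side on the plus strand of chromosome 8, Mt2 from 94172664 to 94173568 and Mt1 from 94179082 to 94180327. Mt1 had 134 FPKM in HSF V30M against 108 in HSF WT, a log2 ratio of 0.31 with a counting interval of the fold from 1.12 to 1.37 on the shortest transcript. For Mt2 the values were 73.6 and 109, a log2 ratio of -0.56, with an interval of 0.574 to 0.791. Neither passed the fold of 1.5, and Mt2 lay just inside it. The FPKM of Mt1 relative to Mt2 was 1.82 in HSF V30M against 0.992 in HSF WT, while their sum was 208 and 218. Mt1 and Mt2 have no stretch of 50 identical bases in common. Mt2 shares 45.8% of its 50-base stretches with the antisense gene Gm45774, which had 2.38 FPKM in HSF V30M against 0.695 in HSF WT, and whether reads were assigned by strand is not given in the sources used here. Mt3, the third metallothionein measured, had 124 and 86.9, a log2 ratio of 0.51, and Mt4 was below a mean of 1. Mtf1, the metal-sensing activator of this family, had 5.42 and 6.95, and the zinc exporter gene Slc30a1, another of its targets, had 15.04 and 15.3. Of 10 metal and oxidative response genes counted, Nqo1, a quinone reductase, was higher past the fold (11.6 and 5.07), and Srxn1, which repairs peroxiredoxins, was lower (16.5 and 27.7).

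Both promoters are shown because the neighbours differed in direction. The core of the metal response element, TGCACNC or TGCGCNC on either strand, is in capitals. The Mt2 window holds 4 such cores, beginning at -223, -128, -50 and 4 from the RefSeq start, and that of Mt1 holds 3, at -23, 2 and 20. These RefSeq starts are 94172618 for Mt2 and 94179089 for Mt1, whereas the gene positions given above begin at 94172664 and 94179082. The positions therefore depend on the start chosen. Cores beyond the windows are not counted, so the numbers of cores do not compare the whole promoters. Of all RefSeq promoters, 25.7% hold at least 1. The windows are chr8:94172368-94172667 for Mt2 and chr8:94178839-94179138 for Mt1, both on the plus strand of GRCm38.p6.
Mt2: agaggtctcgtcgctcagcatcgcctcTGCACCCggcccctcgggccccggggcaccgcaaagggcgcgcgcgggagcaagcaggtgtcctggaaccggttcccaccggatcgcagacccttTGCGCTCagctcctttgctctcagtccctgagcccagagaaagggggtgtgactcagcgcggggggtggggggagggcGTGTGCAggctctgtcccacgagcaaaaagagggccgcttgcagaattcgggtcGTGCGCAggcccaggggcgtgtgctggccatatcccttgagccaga
Mt1: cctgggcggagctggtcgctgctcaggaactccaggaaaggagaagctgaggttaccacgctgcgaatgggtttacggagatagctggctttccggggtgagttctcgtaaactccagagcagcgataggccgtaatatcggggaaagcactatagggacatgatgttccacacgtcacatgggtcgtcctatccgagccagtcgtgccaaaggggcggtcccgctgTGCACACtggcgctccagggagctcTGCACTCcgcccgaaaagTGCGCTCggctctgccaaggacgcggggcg

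Cdkn1a (ENSMUSG00000023067), on the plus strand of chromosome 17 from 29090976 to 29100727, encodes the cell cycle inhibitor p21, which p53 also induces. It had the highest mean of the 8 genes, with 126 FPKM in HSF V30M against 155 in HSF WT and a log2 ratio of -0.30. The counting interval of the fold was 0.762 to 0.867 on the shortest transcript. Cdkn1a shares 8.49% of its 50-base stretches with other annotated genes. Among 15 p53 target genes with a mean of at least 1 (Trp53 itself included), 2 were past the fold, Phlda3 (68.2 and 39.5) and Bbc3 (2.37 and 1.09), both higher in HSF V30M, and the median log2 ratio was 0.00. That is 13.3%, against 8.22% of all genes higher past the fold. The counting interval of the fold of Bbc3 was 1.38 to 3.47 on the longest coding transcript. On the shortest, with 10 and 3 fragments, it was 0.611 to 13.4. The related inhibitors Cdkn1b and Cdkn1c had log2 ratios of -0.03 and 0.05. Of the 24 paralogs of the 8 genes that were counted, 1 was higher past the fold (Fkbp1b, 3.72 and 1.43) and 1 lower (Fkbp11, 1.16 and 3.19), with a median of -0.02. For Fkbp1b the counting interval was 1.5 to 4.73 on the longest coding transcript. On the shortest, with 3 and 1 fragments, it was 0.171 to 112. For Fkbp11 it was 0.168 to 0.718 on either.

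By order of level, Mt1, Cdkn1a, Tsc22d3 and Sgk1 led in HSF V30M, and Cdkn1a, Mt2, Mt1 and Sgk1 in HSF WT. Fkbp5 and Zbtb16 were the lowest of the 8 in both groups. Which neighbours in this order differ beyond the spread between mice is not known. Of the 8 genes, 3 (Tsc22d3, Fkbp5 and Sgk1) were higher in HSF V30M by the fold of 1.5, which is 37.5%, and 0 were lower. Over all 15620 genes, 16.7% were past the fold, 8.22% higher and 8.44% lower. Over the 12715 protein-coding genes, to which all 8 belong, it was 10.3%, with 5.03% higher and 5.32% lower. The median log2 ratio of the 8 genes was 0.33, and 5 of them were above 0, which is near the 50.4% of all genes above 0.

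**Figure D2:**
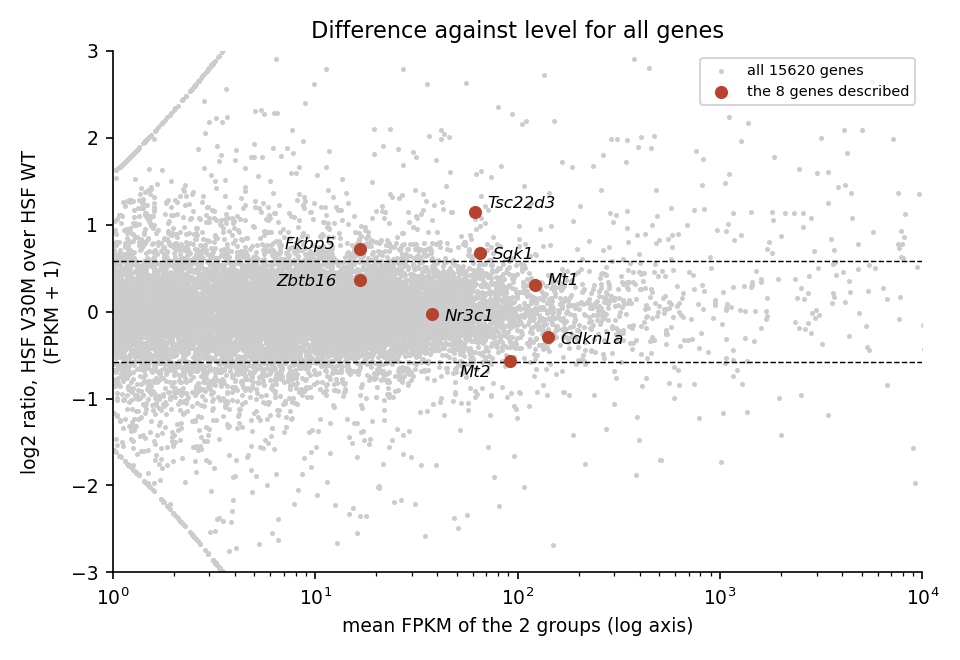
Log2 ratio of HSF V30M to HSF WT on the FPKM + 1 scale against the mean FPKM of the groups (log axis) for 15620 genes, with the 8 genes in red and dashed lines at the fold of 1.5; 385 genes lie outside the axes. Tsc22d3 at 1.15, Fkbp5 at 0.72 and Sgk1 at 0.68 lie above the upper line, and Mt2 at -0.56 lies just inside the lower one.

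A wider list of 35 other genes that glucocorticoids are known to induce in 1 or more tissues was then read. Of these, 32 had a mean of at least 1, and 8 of the 32, or 25%, were past the fold, all of them higher in HSF V30M. The share higher past the fold was 8.22% over all genes and 5.03% over protein-coding genes. The median log2 ratio was 0.23, against 0.00 over all genes, and 27 of the 32 were above 0, against 50.4% of all genes. With a pseudocount of 0.1 in place of 1, 9 were higher and 2 lower. The list was drawn from general knowledge of several tissues and was not limited to genes known to respond in nerve. It was chosen with earlier results of these data known, so its counts are not independent of the data.

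The induced list is divided by role in what follows, and all these roles were assigned after the values were seen. Among its 9 transcription regulators, 4 were past the fold, which is 44.4%. Per1, a repressor of the circadian clock that the receptor activates directly, had 34.5 FPKM in HSF V30M against 13.3 in HSF WT, a linear fold of 2.60 with a counting interval of 1.97 to 3.56 on the shortest transcript. Klf9, a Krüppel-like factor induced by the hormone in brain and skin, had 37.2 and 21.3, a fold of 1.75. Cebpd followed with 12.3 and 6.82 and Klf15, which directs amino acid breakdown under glucocorticoids, with 33.3 and 21.4. Cebpb had 3.82 and 2.40, Foxo3 25.4 and 19.9, and Bcl6 17.8 and 15.7, none past the fold. Hif3a was the lowest of the list, with 1.17 and 2.24 and a log2 ratio of -0.58.

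Of the 7 genes of growth factor and insulin signalling, Ddit4 and Irs2 were past the fold. Ddit4, whose product REDD1 restrains mTORC1, had 21.5 FPKM in HSF V30M against 9.51 in HSF WT, a fold of 2.26 with an interval of 1.94 to 2.63. Irs2, an adaptor of the insulin receptor, had 13.5 and 8.46. Rasd1 (17.04 and 12.4) and Errfi1 (32.1 and 24.8) had log2 ratios of 0.43 and 0.36, and Gadd45g one of -0.49. A separate role, protein breakdown, matrix and cytoskeleton, had 3 genes counted, of which 1 was past the fold. This was Fam107a, an actin-binding protein induced by stress in brain, with 16.98 and 7.90, a log2 ratio of 1.02. Lox, in the same role, crosslinks collagen and elastin and had 32.9 and 22.1, a log2 ratio of 0.55, just inside the fold.

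Of the 6 genes of this list counted under restraint of inflammation or uptake of dying cells, a grouping made after the values were seen, 1 was past the fold, and the median log2 ratio was 0.17. Dusp1, a phosphatase of MAP kinases, had 33.9 and 31.1, Nfkbia, the inhibitor of NF-κB, 82.3 and 70.7, Anxa1 53.4 and 49.8, and Mertk 25.03 and 21.5. The gene past the fold was Lcn2, with 8.20 FPKM in HSF V30M against 3.42 in HSF WT, which is also a neutrophil gene. The 7 metabolic genes counted had a median log2 ratio of 0.00, with 0 past the fold, from Plin4 (35.9 and 48.3) through Angptl4 (53.9 in both groups) to Glul (299 and 220), which encodes glutamine synthetase.

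**Figure D3:**
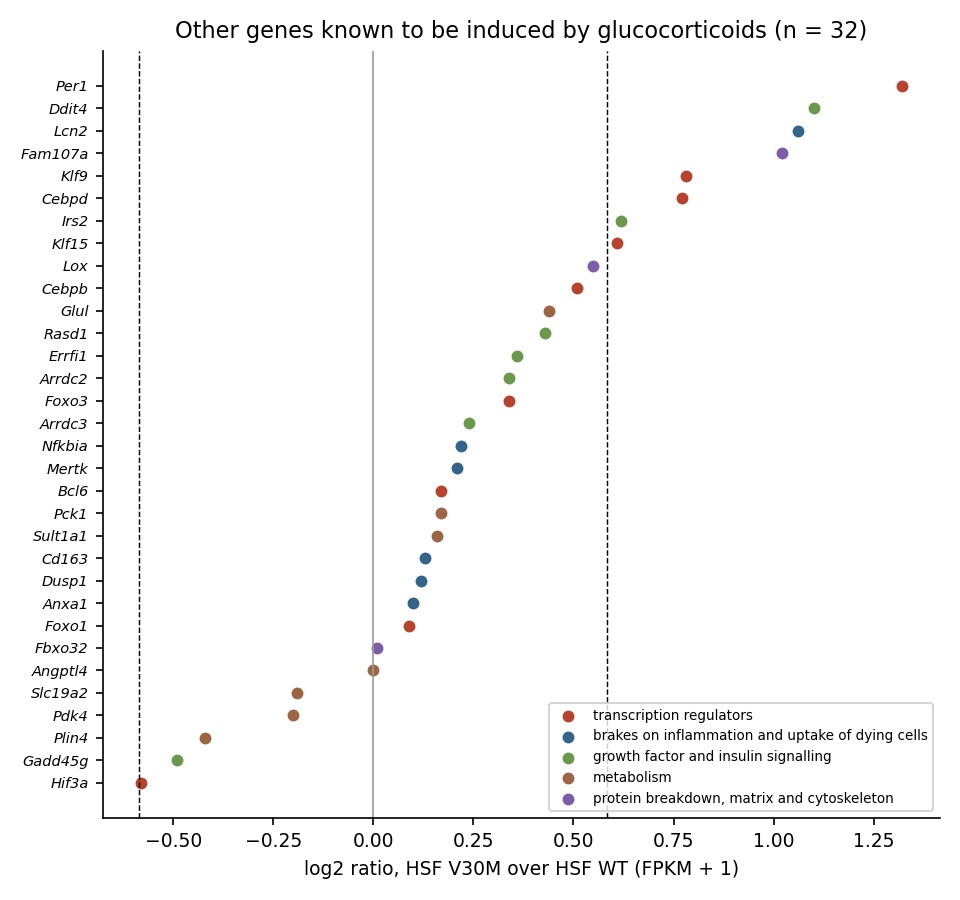
Log2 ratio of HSF V30M to HSF WT (FPKM + 1) for the 32 other induced target genes counted, coloured by role, with a grey line at 0 and dashed lines at the fold of 1.5. The 8 genes right of the upper line run from Klf15 at 0.61 to Per1 at 1.32, and none lies left of the lower line.

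Genes whose products fold the receptor, act with it or set its supply of hormone were counted next. Of the 12 chaperones and co-chaperones, 10 had a ratio below 0 and 1, Stub1, was past the fold (24.5 FPKM in HSF V30M against 37.3 in HSF WT), with a median log2 ratio of -0.29. The share lower past the fold was 8.33%, near the 8.44% of all genes and above the 5.32% of protein-coding genes. Hsp90ab1 had 313 and 421, Hsp90aa1 102 and 127, and Ptges3, which encodes p23, 19.7 and 24.0, beside the lower Hsf1 value given above, whose part in these values was not tested. The 12 coregulators measured had a median of 0.01 and 0 past the fold, with Ncoa1 at -0.47 and Carm1 at 0.45 as the ends of the range. Hsd11b1, which regenerates active hormone inside cells, had 5.75 and 4.94, while Hsd11b2, which inactivates it, was below a mean of 1. Abcb1b, a drug and steroid exporter, had 3.78 and 7.07, a log2 ratio of -0.76, and its close relative Abcb1a had 23.9 and 21.1. Abcb1b was the only one past the fold among the 7 genes of steroid supply and related receptors counted, whose median log2 ratio was -0.11. Of 15 genes that glucocorticoids are known to repress, 6 had a mean of at least 1. Past the fold, Ccl2 was higher in HSF V30M (13.1 and 7.91), and Vcam1 (4.30 and 8.45) and Mmp9 (5.12 and 8.37) were lower. Col1a1, Icam1 and Pomc had log2 ratios of 0.26, 0.02 and -0.08, and the median of the 6 was -0.03. Il1b, Il6, Tnf and Ptgs2 were below a mean of 1 in these nerves.

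Other gene groups differed between the groups beside the responsive genes. Of 15 circadian clock genes, 8 were higher and 2 lower past the fold, with a median log2 ratio of 0.75, and without Per1 it was 7 and 2 of 14, with a median of 0.66. Dbp had 73.7 FPKM in HSF V30M against 17.5 in HSF WT, Per2 had 20.7 and 6.51, and Nr1d1, which encodes REV-ERBα, had 93.2 and 55.1. In the other direction, Arntl, which encodes BMAL1, had 4.32 and 8.20, and Npas2 had 0.52 and 3.44. The hour at which nerves were taken is not given in the sources used here, and the part of the clock in the values of Per1, Tsc22d3, Fkbp5 and Sgk1 was not tested. Immediate early genes had a median of 0.08, with 1 of 10, Nr4a1, past the fold.

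Markers of cell types also differed. All 9 skeletal muscle genes with a mean of at least 1 were below 0, 8 of them past the fold, with a median log2 ratio of -1.68 and a summed FPKM of 54.3 in HSF V30M against 186 in HSF WT. Of 10 adipocyte genes, 9 were below 0 and 3 past the fold, with a median of -0.36 and a summed FPKM of 2660 and 3600. The 7 B and T cell genes with a mean of at least 1 were all lower past the fold, while Ms4a1, Cd3g and Cd3d were below that mean. Macrophage and fibroblast genes had medians of -0.48 and -0.30, with 3 of 10 and 2 of 8 lower past the fold. Neutrophil genes had 7 of 8 higher and 1, Csf3r, lower, with a summed FPKM of 115 and 35.7, and erythrocyte genes had 6 of 7 higher, with 338 and 128. Schwann cell and endothelial genes had medians of 0.23 and 0.25, with 1 of 12 (S100b) and 2 of 8 (Flt1 and Cldn5) higher past the fold. The part of these differences in the ratios of the responsive genes was not tested. Without the 4 induced target genes that also stand on a clock or marker list (Per1, Lcn2, Cd163 and Pck1), a subset chosen after the values were seen, 6 of 28 were past the fold and the median was 0.23. This subset is no test of the clock or of cell types, because leaving out listed genes removes neither from the values of the other 28. A median over so many shared genes could also hardly move.

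**Figure D4:**
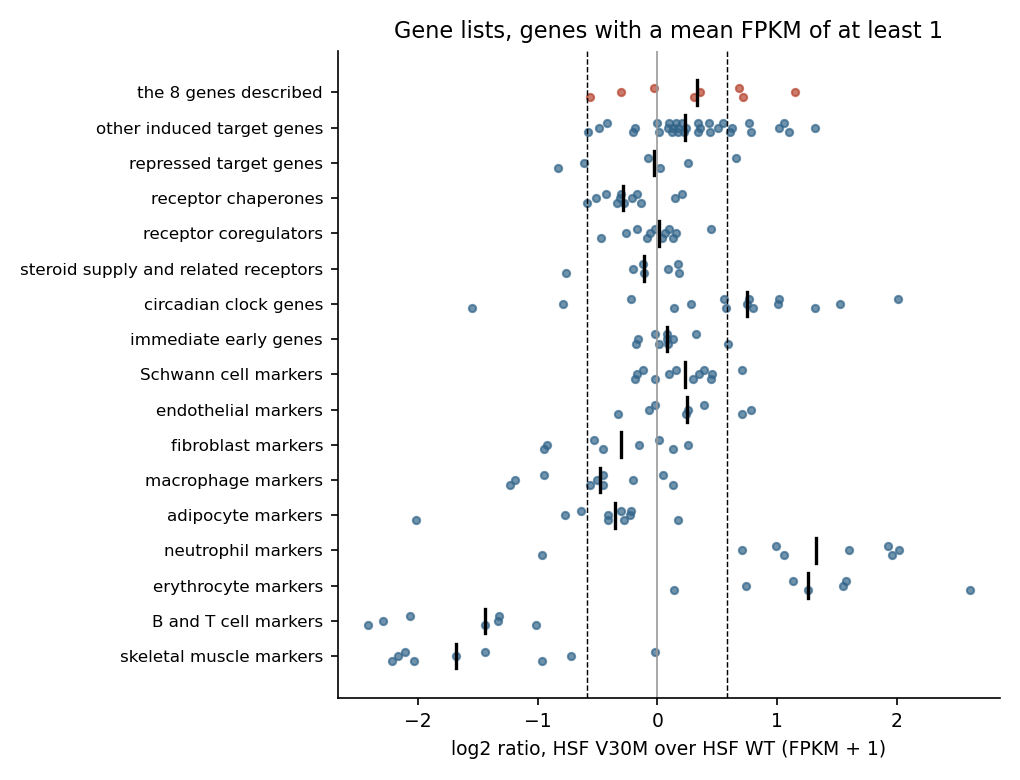
Log2 ratio of HSF V30M to HSF WT (FPKM + 1) for every gene counted in each list, with a black bar at the list's median and dashed lines at the fold of 1.5. The medians of the 8 genes (red, 0.33) and of the other induced targets (0.23) lie right of 0 and that of the receptor chaperones (-0.29) left of it, with genes of all 3 lists on either side.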

How the data were processed

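RNA of sciatic nerve was sequenced from 2 HSF V30M and 2 HSF WT libraries made with Ion Torrent protocols. The methods give n = 4 without saying whether this is per group. Per the labels, STAR, Cufflinks and Cuffdiff were used with GRCm38, and versions are not given in the sources used here. The authors deposited 1 table with 1 FPKM per gene and group. Its fold changes, test statistics, p-values and q-values are the authors' own comparison and were not used. Columns were read by number, since the header line is incomplete, and decimal commas were turned into points. The 23 genes with too many alignments were left out.

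The members and gene lists were chosen with earlier results of these data known, and the roles within the induced list were assigned after their values were seen. Named are the 8 members and listed genes past the fold or with a defined role. No gene was named for likeness of pattern, since 1 value per group gives a single difference. The differences have no replicate check.

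Depth was read from low values of single-transcript genes. With 198 bases taken from the transcript length, 74.3% of 1421 low HSF WT values fell into 2 narrow peaks, the worth of 1 fragment in each library, which differ 1.35-fold. For HSF V30M, rounded to 2 decimals, it was 37.9% of 589 and 1.17-fold, a weaker estimate. Counting intervals are Clopper-Pearson intervals at 95% on the fragments so derived, for the shortest or the longest coding transcript. They cover counting error only. Transcripts and positions are from GENCODE M21, which holds 50369 of the gene identifiers; the locus of Nr3c1 in the table ends at 39491301 and not at the annotated end, so the authors' annotation was another one. Promoters are from RefSeq (GRCm38.p6). Steps were tested on simulated data. Software was Python 3.11.15 with scipy 1.17.1, matplotlib 3.10.9, pandas 2.3.3 and numpy 2.4.6.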

Additional observations from a re-analysis of the deposited data

How the results depend on the processing

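No paired analysis was possible because values per mouse are not in the table, and for the same reason no library was left out in turn. Among 40 comparisons of the 8 genes' ratios with another setting, 38 kept direction and side of the fold. Most of these could not have come out otherwise, so the count is no measure of robustness. The lowest mean of the 8 genes was 16.6 FPKM, so the settings of the minimum FPKM cannot alter their ratios. Scaling by factors this near 1 hardly can, and a higher fold cannot change direction. With a fold over 2, Fkbp5 (log2 ratio 0.72) and Sgk1 (0.68) were no longer past it. Then 1 of the 8 (Tsc22d3), 4 other induced target genes and 1237 genes in all remained past it, against 3, 8 and 2603. The shares past a fold over 2 were 12.5% of the 8, 12.5% of the 32 other induced targets and 7.92% of all 15620 genes. At the main setting they were 37.5%, 25% and 16.7%. The shares of all genes cover either direction, and of the 1237 genes 621 were higher and 616 lower. Over all genes, 1378 were past the fold at a minimum mean FPKM of 5, 1315 among protein-coding genes and, added after seeing the data, 923 with a mean of at least 10; these settings count fewer genes by construction. The factors of median-of-ratios scaling were 1.001 and 0.999, and the calls of the 8 genes stayed as they were. The counting interval of a fold depends on the transcript length assumed. For Fkbp5 it ran from 0.999 to 2.97 on the shortest transcript, which includes 1, and from 1.56 to 1.86 on the longest coding one. Which of its transcripts the reads came from is not known here.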
